A study of Drosophila melanogaster with 249 samples.

Results

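Df(3L)ED4978 is a DrosDel deficiency (Df), a chromosome of Drosophila melanogaster from which a known stretch of arm 3L has been removed, carried over an intact homologue so that the genes of the stretch are present in 1 copy. RNA-Seq of heads was examined for the libraries labelled Df(3L)ED4978 against every other analysed library of the same karyotype and sex. There were 9 such libraries, 3 of 97 from XX females, 3 of 96 from XX flies transformed into males by tra2 alleles (written tra2 XX) and 3 of 39 from XY males. Each was made from a pool of 10 heads of adults aged 5 days. XX females and XY males carried Df(3L)ED4978/+ and were offspring of the same cross, between Df(3L)ED4978/TM3 mothers and w1118/Y fathers. For the X chromosomes, the labels give w1118/Y in these males and w1118/+ in these females, although both parents are given as w1118. The tra2 XX flies carried tra2B over Df(2R)trix besides Df(3L)ED4978/+, in a w1118/w1118 background, and came from a separate cross of several generations. They were set against 94 XX libraries of 32 other lines, 93 tra2 XX libraries of 31 other lines and 36 XY libraries of 12 other lines. In each class 10 of the other lines carried another 3L Df. X Dfs were carried by 19 of the XX and 19 of the tra2 XX lines, no Df by 3 XX, 2 tra2 XX and 2 XY lines, and all tra2 XX lines shared Df(2R)trix/tra2B. The XX lines with no Df were w1118/w1118 (the DrosDel parent), w+/w+ (OreR in the study) and w+/w1118. Those of tra2 XX were w1118/w1118 and w+/w1118, and those of XY w1118/Y and w+/Y. The 3 libraries of a class came from 1 stock and 1 cross, and nothing in the labels names separate matings. The p-values count each library as independent, on a spread pooled between these pools and between the other lines. For a claim about the line they can therefore be too small.

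In a diploid animal a gene present in 1 copy yields, without any response of the cell, about as much transcript as that copy makes alone. Feedback on transcription or on RNA stability can raise that level, and the loss of a dose can also alter genes elsewhere through the pathways in which the deleted genes act. The lowered run described below was taken as the stretch lost, since no coordinates of the deletion were used. The run held genes for the ubiquitin receptor of the proteasome (Rpn10) and for a subunit shared by the nuclear RNA polymerases (Polr2H). It also held genes for a cyclin of the transcription factor TFIIH (CycH) and for an enzyme of proline breakdown (P5CDh1). Rpn10 is the outermost gene at an edge of the run, and whether a copy of it was deleted was not tested apart from its expression. Proteasome subunit genes of flies and mammals are known to be induced together when proteasome function is impaired.

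Reads on genes numbered 10447148, 7236800 and 10095629 in the XX libraries of Df(3L)ED4978, against 3089103 to 18679735 in other XX libraries. They numbered 6536558, 4646439 and 3021074 in tra2 XX, against 667146 to 13306476, and 10259414, 14388803 and 10074467 in XY, against 1381962 to 16011623. Replicates differed by more than counting error in every pair, with a median chi-square per gene of 1.53 to 6.64, so none was a repeat of another. The head label was checked with neuronal elav (759.5 to 1342.8 normalized read counts over the 9 libraries) and with ninaE, the main rhodopsin (90196 to 187552). Yolk protein gene Yp1 separated the XX libraries (158556 to 231656) from tra2 XX (3.25 to 75.2) and XY (26.3 to 228.6), and tra2 stood at 34.2 to 55.9 in tra2 XX, against 92.8 to 113.1 in XX. Single libraries stood apart in a pair of features. In tra2 XX replicate 2, roX1, a male-specific RNA of X dosage compensation, was at 626.1 normalized read counts, against 20.2 and 20.4 in the other replicates, and 5 of 96 tra2 XX libraries exceeded 100. In XX replicates 2 and 3 the summed level of 4 ovary and egg markers (osk, Cp15, Cp36, Vm26Aa) was 122.6 and 79.7, against 1.46 in replicate 1, and 8 of 94 other XX libraries exceeded 50. The run and the calls outside it are given without each of these libraries below. Values by replicate are given for some of the marker and stress lists, and the others can differ between replicates too.

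The lowered run of 3L was the main feature of the line. Rpn10 and mub bounded a run of neighbouring genes whose expression ratio lay near 0.5 in all 3 classes. The ratio sets the mean of the 3 Df(3L)ED4978 libraries against the median over other lines' libraries of the class, and was taken where that median exceeded a low-expression cut-off of 6 normalized read counts. The bounds were located in the libraries of 2 classes and the ratios measured in the remaining one, and the same bounds were found in every case. BDGP6 annotates 61 of the genes in the tables within the run. Of these, 32 passed the cut-off in XX females, 32 in tra2 XX flies and 33 in XY males, where the seminal fluid protein gene Sfp78E was added, and 28 passed it in no class. The median ratio was 0.522 in XX females, 0.534 in tra2 XX flies and 0.507 in XY males. On the log2 scale, the median of the run was -1.06, -0.96 and -0.85 in the 3 XX libraries, -0.85, -0.95 and -0.92 in the tra2 XX libraries and -0.96, -1.13 and -0.99 in the XY libraries. The same median in other lines lay between -0.07 and 0.19 in XX females, between -0.09 and 0.16 in tra2 XX flies and between -0.03 and 0.13 in XY males, so that no other line came near Df(3L)ED4978 in any class. The ratio was below 1 for every gene over the cut-off, and Df(3L)ED4978 was the lowest of all lines for 26 of 32 genes in XX females, 29 of 32 in tra2 XX flies and 31 of 33 in XY males.

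**Figure D1:**
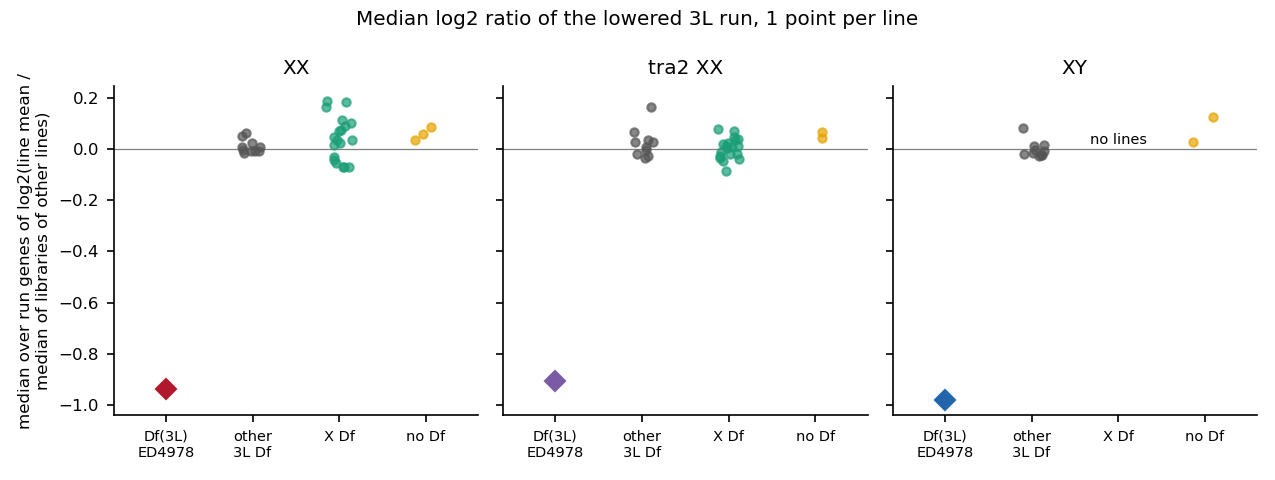
Median over the run genes of the log2 ratio of a line's mean to the median of libraries of other lines, 1 point per line, for XX, tra2 XX and XY (Df, deficiency). Df(3L)ED4978 (diamonds) sits at -0.94, -0.91 and -0.98, and every other line lies between -0.09 and 0.19.

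Differential expression across all genes was tested on the read counts with edgeR's quasi-likelihood test, each class in its own fit and with Benjamini-Hochberg adjustment. In XX, 14 of 37 run genes tested were lower at an adjusted p under 0.05, where 0.134% of all 10457 genes tested were called lower. In tra2 XX the count was 20 of 32, with 0.283% of 9556 genes called lower, and in XY it was 23 of 38, with 0.221% of 10419. No run gene was called higher in any class. The run genes make up all 14 lower calls of XX, 20 of 27 in tra2 XX and all 23 of XY. At an unadjusted p under 0.05, 32, 31 and 33 run genes were lower, beside 2.16%, 3.03% and 1.42% of all genes tested. The 3 libraries lay below every other library of the class for 11, 12 and 21 of the genes over the cut-off, against 0.105%, 0.147% and 0.202% of all genes tested. Of the 32 genes over the cut-off in all classes, 12 were called in all of them, 7 in a pair of classes, 7 in 1 and 6 in none. Without tra2 XX replicate 2, 15 run genes were called in tra2 XX and the median log2 ratio was -0.89, and 15 and 17 were called without replicates 1 and 3. Without XX replicates 2 and 3 in turn, 12 and 11 were called in XX and the median was -0.93 and -0.99, and without XX replicate 1 only 9 were called. Calls that stood whichever library of the line was left out were 9 of 14 in XX, 13 of 20 in tra2 XX and 14 of 23 in XY.

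**Figure D2:**
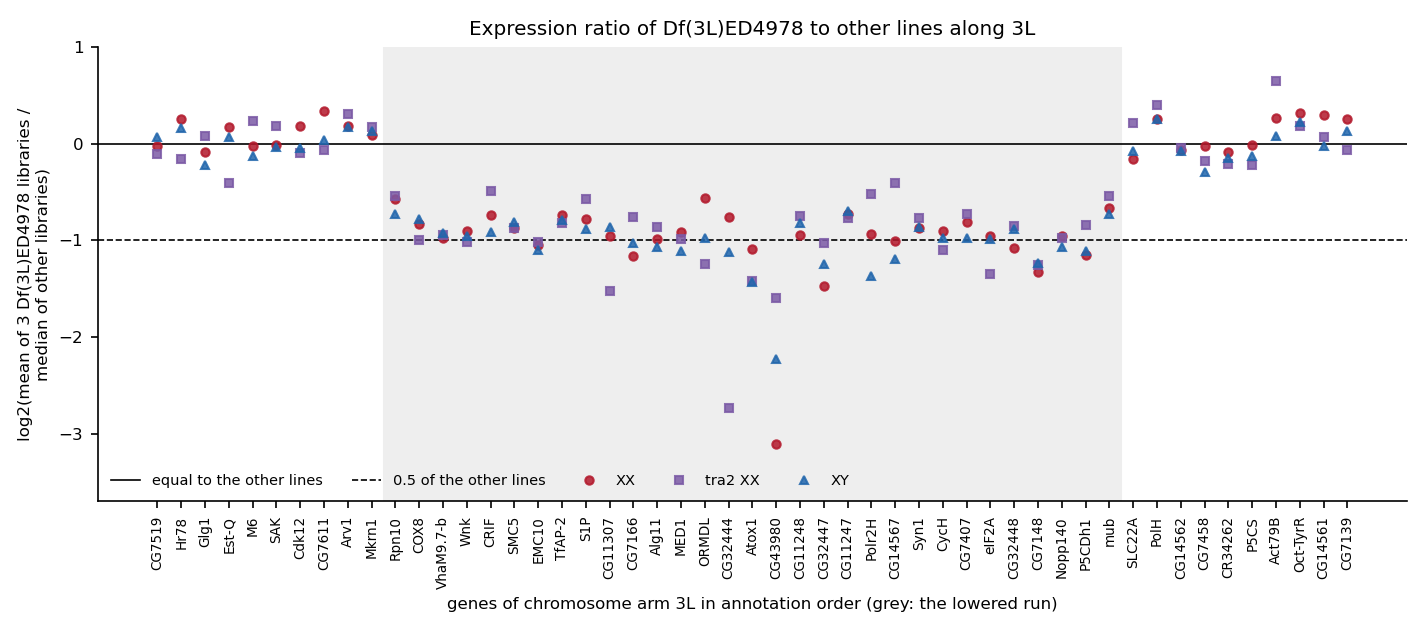
Log2 of the mean of the 3 Df(3L)ED4978 libraries over the median of other libraries, for genes of the run over the cut-off in every class (grey, all but 1 not reported here) and 10 genes on each side, in 3L order, for XX (circles), tra2 XX (squares) and XY (triangles). Points within the run gather around -1 (dashed line), the flanks around 0 (solid line), and CG32444 and CG43980 fall furthest.

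The edges fell between neighbouring genes. Before the run, CG7611, Arv1 and Mkrn1 had ratios of 1.26, 1.14 and 1.07 in XX, of 0.96, 1.24 and 1.13 in tra2 XX and of 1.02, 1.13 and 1.10 for XY. Arv1 is an endoplasmic reticulum protein of sterol homeostasis and Mkrn1 a RING finger protein. After it, SLC22A, PolH and CG14562 had ratios of 0.895, 1.19 and 0.958 in XX, of 1.16, 1.32 and 0.968 in tra2 XX and of 0.948, 1.20 and 0.95 for XY. SLC22A is a solute carrier and PolH a DNA polymerase of translesion synthesis. None of these 6 genes was called in any class.

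Averaged over the classes, the outermost genes had the highest ratios among the genes of the run tested in every class, though other genes exceeded them within each class, among them ORMDL in XX, CG14567 in tra2 XX and CG11247 in XY. Rpn10, the first gene (FBgn0015283), had 274.0, 371.3 and 360.5 normalized read counts in XX, against a median of 497.9 in other XX libraries. It had 427.9, 484.6 and 384.9 in tra2 XX against 631.6, and 279.1, 275.1 and 261.2 in XY against 451.2. The XY libraries lay below every other XY library, whereas those of XX and tra2 XX overlapped with the lower end of the others. The ratios were 0.673, 0.685 and 0.602 and the log2 fold changes -0.68 ± 0.21 (SE), -0.57 ± 0.15 and -0.76 ± 0.11, with adjusted p of 0.64 in XX females, 0.051 in tra2 XX flies and 1.6e-05 in XY males. The 95% interval of the fold change lay above -1 in tra2 XX and XY.

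At the other edge, mub (FBgn0262737), a KH-domain RNA-binding protein named for its expression in mushroom bodies, had 2684.2, 1978.1 and 2709.5 normalized read counts in XX, against a median of 3891.9. It had 2327.5, 1944.9 and 2717.3 in tra2 XX against 3395.2, and 2510.4, 3648.3 and 2809.3 in XY against 4966.5. Other libraries reached as low as 982.7 in tra2 XX, and mub was called in no class, with log2 fold changes of -0.63 ± 0.25, -0.50 ± 0.23 and -0.68 ± 0.23 and ratios of 0.631, 0.686 and 0.602. The mean ratios, taken over the classes on the log2 scale, were 0.652 for Rpn10 and 0.639 for mub, followed by CRIF at 0.610, CG11247 at 0.602, S1P at 0.597 and TfAP-2 at 0.582.

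Genes of mitochondria, transport and proline breakdown comprised COX8, CRIF, VhaM9.7-b, Atox1 and P5CDh1, of which 3 were called in each class. P5CDh1 (FBgn0037138), the dehydrogenase that turns the proline intermediate pyrroline-5-carboxylate into glutamate, had 1152.1, 915.9 and 1156.7 normalized read counts in XX, against 1711.3 to 3846.0 (median 2396.2). It had 1642.3, 1749.8 and 1569.2 in tra2 XX, against 2502.8 to 3616.2 (median 2960.0), and 1164.9, 1462.4 and 1276.3 in XY, against 1893.9 to 3417.5 (median 2799.5). The groups did not overlap in any class. The log2 fold changes were -1.18 ± 0.16, -0.85 ± 0.08 and -1.08 ± 0.13, with adjusted p of 3.5e-07, 1.8e-14 and 1.1e-06. P5CS, which makes the same intermediate and lies beyond the end of the run, had ratios of 0.993, 0.857 and 0.917.

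Atox1, a copper chaperone, was among the genes lowered most. It had 194.3, 295.9 and 200.4 normalized read counts in XX against 310.1 to 898.1, 162.9, 138.2 and 142.7 in tra2 XX against 250.2 to 754.8, and 208.3, 155.2 and 192.2 in XY against 433.4 to 1306.8. Its ratios were 0.471, 0.375 and 0.372, with adjusted p of 0.00041, 8.3e-08 and 2.3e-06, and the 95% interval lay below -1 in tra2 XX and XY. CRIF, a factor of mitochondrial translation, had ratios of 0.601, 0.710 and 0.532 and was called in XX and XY (adjusted p = 0.0085 and 1.4e-05). VhaM9.7-b, a subunit of the vacuolar proton pump, had ratios of 0.508, 0.520 and 0.526. Its 3 libraries lay below all others in every class, and it was called in tra2 XX (adjusted p = 0.00048). COX8, a cytochrome c oxidase subunit, had ratios of 0.562, 0.50 and 0.584 and was not called. Other XX libraries spanned 495.1 to 3184.0 normalized read counts for it, and its XY libraries lay below all others.

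The endoplasmic reticulum and lipid genes EMC10, S1P, Alg11 and ORMDL had median ratios of 0.543, 0.521 and 0.491. Alg11, a mannosyltransferase of N-glycan precursors, had 223.6, 234.0 and 228.5 normalized read counts in XX against 352.6 to 651.5, 228.4, 323.6 and 249.1 in tra2 XX against 360.7 to 884.8, and 197.6, 208.7 and 212.8 in XY against 382.6 to 606.0. No library of the line reached the lowest of the others, and the log2 fold changes were -1.04 ± 0.14, -0.93 ± 0.18 and -1.08 ± 0.09, with adjusted p of 6.8e-07, 0.00094 and 6.3e-11. Alg11 overlaps MED1 on the opposite strand, and the library kit does not mark strand, so reads of the shared part cannot be told apart. The same holds for P5CDh1 and Nopp140. Of the 33 run genes over the cut-off in at least 1 class, 13 have an overlap in the annotation. S1P, the protease that first cleaves SREBP, had ratios of 0.583, 0.671 and 0.543 and was called in XX and XY. EMC10, a subunit of the membrane insertion complex, had ratios of 0.483, 0.496 and 0.466 and was called in tra2 XX and XY. ORMDL, a regulator of sphingolipid synthesis, had ratios of 0.679, 0.421 and 0.507 and was called in tra2 XX and XY.

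**Figure D3:**
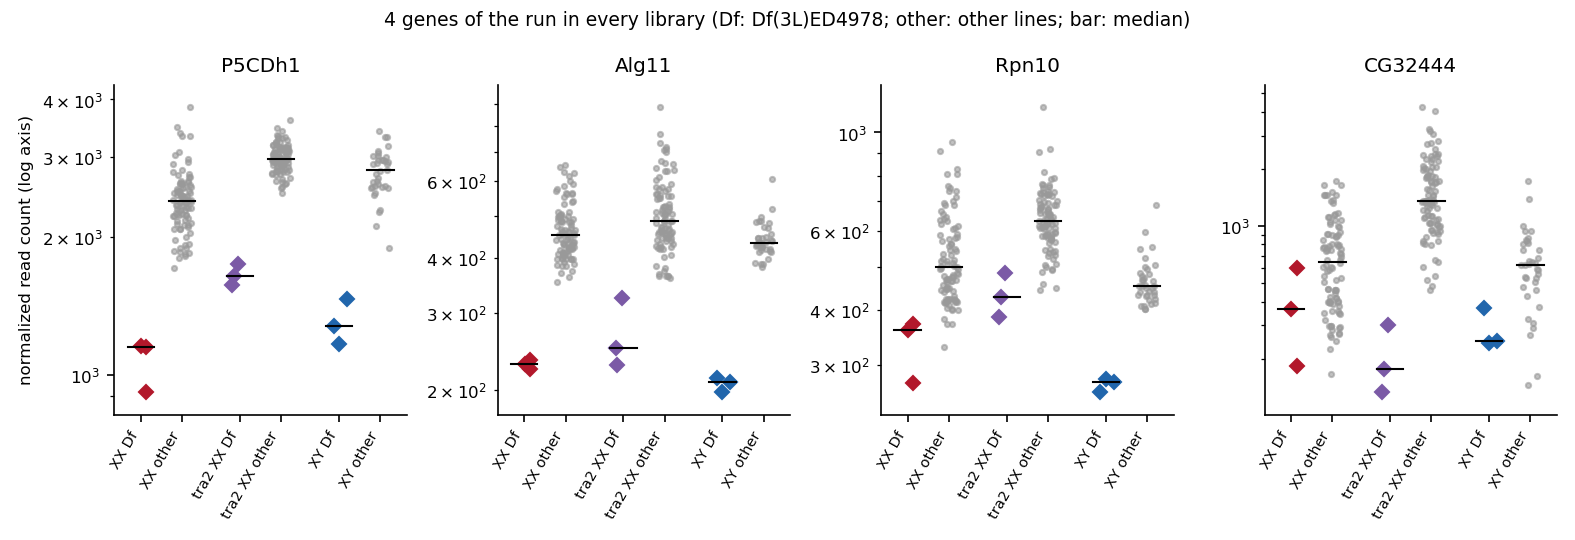
Normalized read counts on a log axis of P5CDh1, Alg11, Rpn10 and CG32444 in each Df(3L)ED4978 library (diamonds) and each library of other lines (dots), by class, with the median as a bar. P5CDh1 and Alg11 of the line lie below all other libraries of the class, Rpn10 does so in XY, and CG32444 in tra2 XX.

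Genes of transcription and the nucleus comprised TfAP-2, MED1, Polr2H, CycH, SMC5 and Nopp140. All 6 were called in XY, 3 in tra2 XX and 1 in XX. MED1, a subunit of the Mediator complex, was called in every class with ratios of 0.531, 0.506 and 0.462. Nopp140, a nucleolar chaperone for small ribonucleoproteins, had 168.0, 156.4 and 176.1 normalized read counts in XX against 169.3 to 1140.4, 144.6, 102.4 and 120.0 in tra2 XX against 128.2 to 341.7, and 94.7, 105.2 and 100.0 in XY against 170.1 to 266.9. Only the XY groups did not overlap, and the ratios were 0.516, 0.509 and 0.477. TfAP-2, a transcription factor of leg development, had ratios of 0.601, 0.566 and 0.579, with adjusted p of 0.058, 0.030 and 0.0055. CycH had ratios of 0.535, 0.466 and 0.507, SMC5, of a chromosome maintenance complex, 0.545, 0.548 and 0.572, and Polr2H 0.524, 0.696 and 0.386. These 3 were called in XY only, a difference between classes that did not pass the test given below. The XY calls of TfAP-2 and CycH, and the tra2 XX call of TfAP-2, were lost whichever library of the line was left out.

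The remaining named genes were eIF2A, Wnk and Syn1. eIF2A, an initiation factor, had 1111.2, 1053.2 and 1217.4 normalized read counts in XX against 1434.2 to 4220.9, 626.5, 1083.0 and 939.7 in tra2 XX against 1182.3 to 3133.4, and 869.4, 737.6 and 876.4 in XY against 939.5 to 2171.9. It stood below all other libraries in every class, with ratios of 0.517, 0.393 and 0.506 and adjusted p of 0.0019, 8.1e-06 and 0.0014. Syn1, a syntrophin of the dystrophin complex, had ratios of 0.546, 0.585 and 0.550 and was called in every class. Wnk, a kinase that governs ion transporters, had ratios of 0.533, 0.495 and 0.517 and was called in tra2 XX (adjusted p = 0.0049).

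A further 11 genes are known here by identifier alone, of which 5 were called in XX females, 7 in tra2 XX flies and 6 in XY males. CG7148 had 44.6, 49.5 and 48.6 normalized read counts in XX against 62.9 to 210.5, 65.5, 69.9 and 54.3 in tra2 XX against 105.2 to 198.2, and 45.8, 56.6 and 56.1 in XY against 94.1 to 167.6. The groups did not overlap in any class. Its ratios were 0.399, 0.420 and 0.425 and its adjusted p 2.5e-06, 3.7e-11 and 1.4e-07. CG11247 had the highest mean ratio of the genes called in every class, with 0.604, 0.587 and 0.615, and its 95% interval lay above -1 in XX and XY. CG11248 had ratios of 0.521, 0.594 and 0.568, CG7407 of 0.570, 0.605 and 0.508, and CG7166 of 0.445, 0.593 and 0.492, all called in every class. The tra2 XX and XY calls of CG7407 were lost whichever library of the line was left out, while those of CG7166 stood. CG11307 had ratios of 0.516, 0.347 and 0.551 and was called in tra2 XX and XY. CG32448, which overlaps eIF2A, had ratios of 0.472, 0.553 and 0.543 and was not called.

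CG32444 differed most between classes. It had 183.4, 604.2 and 366.6 normalized read counts in XX against 165.4 to 1721.5 (median 649.9), 176.4, 300.8 and 133.6 in tra2 XX against 458.8 to 4225.8 (median 1356.3), and 241.5, 247.2 and 368.2 in XY against 145.1 to 1733.0 (median 622.5). Only the tra2 XX groups did not overlap. The ratios were 0.592, 0.150 and 0.459, and only tra2 XX was called (log2 fold change -2.93 ± 0.51, adjusted p = 9.2e-05). The difference between tra2 XX and XX was -2.02 ± 0.63 on the log2 scale, with an unadjusted p of 0.0015 and an adjusted p of 0.87. CG43980, at a few reads, had 2.92, 0 and 0 normalized read counts in XX against a median of 8.42, 4.82, 0 and 2.26 in tra2 XX against 7.12, and 0.63, 0.88 and 5.16 in XY against 10.39, with ratios of 0.116, 0.332 and 0.214. It was not called. CG32447 had ratios of 0.361, 0.489 and 0.422. CG14567 had ratios of 0.498, 0.755 and 0.437. Neither was called lower. Against lines without a Df alone the fitted change of CG14567 turned to 0.21, 0.65 and 0.14 in XX, tra2 XX and XY, of which that in tra2 XX passed the threshold as higher (adjusted p = 0.031), and that of CG32447 in XX turned to 0.029. Sfp78E, measured over the cut-off in XY only, had 2.51, 1.77 and 1.94 normalized read counts, against 2.91 to 16.4, a ratio of 0.285 with an adjusted p of 0.098. It overlaps CG11248.

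Against a fold change of -1 on the log2 scale, the level of 1 copy without any response, 30 of 32 intervals held that value in XX females, 26 of 32 in tra2 XX flies and 28 of 33 in XY males. Intervals lay above it for CG11247 in XX, for Rpn10, CRIF, S1P and mub in tra2 XX, and for Rpn10, CG11248 and CG11247 in XY. They lay below it for CG43980 in XX females, for CG32444 and Atox1 in tra2 XX flies and for Atox1 and CG43980 in XY males. An interval that holds -1 does not show that a gene had no response. Across the 32 genes, log2 ratios of XX and XY had a Pearson correlation of 0.86 (0.63 without CG32444 and CG43980), those of XX and tra2 XX of 0.27 and those of tra2 XX and XY of 0.35. These describe genes of 1 cross (XX and XY) or of separate crosses, and genes are not independent replicates.

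Whether the response to the Df differed between classes was tested in 1 fit of all 3. No gene of 10799 passed the threshold for tra2 XX minus XX, XY minus XX or tra2 XX minus XY. An unadjusted p under 0.05 was reached by 597, 70 and 241 genes (5.53%, 0.648% and 2.23% of those tested). Of the 40 run genes, 3, 0 and 2 reached it. The lack of a call does not show that the responses were equal. With only the other 3L Df lines in the comparison, 3 genes passed for XY minus XX, the maternally supplied egg genes swa and fs(1)Ya and the cyclin gene CycA. All of them followed the ovary markers, with swa at 2.19, 67.5 and 28.8 normalized read counts in XX replicates 1, 2 and 3.

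Outside the run, few genes passed the threshold. In XX 2 were higher and none lower, in tra2 XX 4 were higher and 7 lower, and in XY 2 were higher and none lower. Over all genes tested, 0.0191%, 0.0419% and 0.0192% were called higher. Without adjustment, at a p under 0.05, 81, 237 and 124 genes outside the run were higher (0.775%, 2.48% and 1.19% of all genes tested), and 226, 290 and 148 were lower over all genes tested, run genes included. DESeq2 called 1 higher in XX females, 3 higher and 22 lower in tra2 XX flies and 4 higher in XY males, again outside the run. A single gene was shared by classes, baz, which was higher in XX and XY, and none was shared by all 3.

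**Figure D4:**
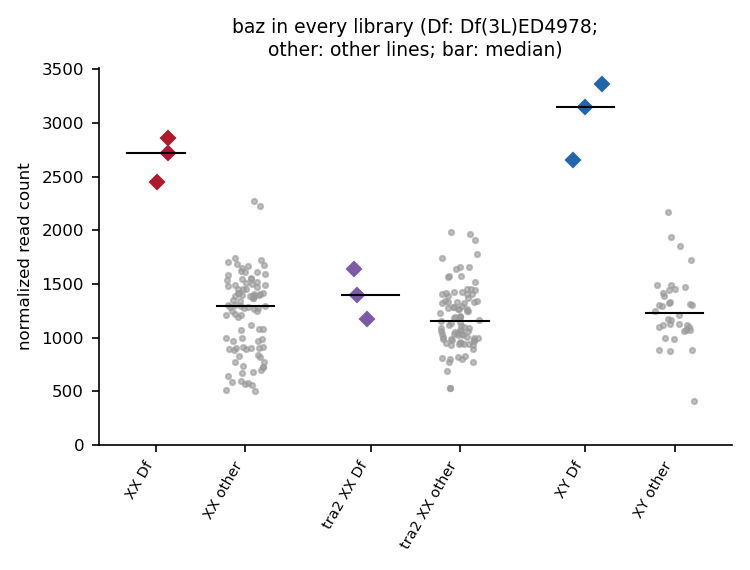
Normalized read count of baz in each Df(3L)ED4978 library (diamonds) and each library of other lines (dots), by class, with the median as a bar. The XX libraries (2446.2 to 2862.5) and XY libraries (2653.8 to 3365.3) lie above all others of their class, and the tra2 XX libraries (1172.5 to 1639.4) lie within the range of the others.

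baz (FBgn0000163) lies on the X chromosome and encodes Bazooka, the Par-3 scaffold of cell polarity. It had 2862.5, 2724.1 and 2446.2 normalized read counts in XX, against 504.3 to 2270.1 (median 1291.0). It had 3146.5, 3365.3 and 2653.8 in XY, against 404.0 to 2168.0 (median 1226.1), and 1400.4, 1172.5 and 1639.4 in tra2 XX, against 526.9 to 1981.8 (median 1156.6). The XX and XY groups did not overlap with the others, which held for 0.00956% and 0.0192% of all genes tested, and the line was the highest of 33 and of 13 lines. In tra2 XX it ranked 5th of 32. The log2 fold change was 1.13 ± 0.23 in XX (adjusted p = 0.0038), 1.29 ± 0.19 in XY (4.3e-05) and 0.24 ± 0.19 in tra2 XX (1.00). The difference between tra2 XX and XX was -0.89 ± 0.33 (unadjusted p = 0.0075, adjusted p = 0.88) and that between tra2 XX and XY -1.04 ± 0.33 (0.0021 and 1.00). The class in which baz was near the other lines is also the one from the separate cross, so sex transformation and cross cannot be told apart. Ovary markers stood at 1.46, 122.6 and 79.7 in XX replicates 1, 2 and 3, and their part in the level of baz was not tested. With any 1 library left out, the log2 fold change of baz in XX was 1.09 to 1.20 and its adjusted p rose to between 0.052 and 0.27, while in XY the adjusted p stayed between 0.00065 and 0.0052.

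Lip3, a lipase gene, was the other gene called in XX. It had 32.1, 31.5 and 18.2 normalized read counts in XX, against 0 to 22.0 (median 4.97), and 32.6, 34.5 and 18.7 in XY, against 0.85 to 50.5 (median 7.94). In tra2 XX it had 5.78, 14.6 and 22.6, against a median of 6.71. It was highest of all lines in XX and XY, with log2 fold changes of 2.04 ± 0.47 (adjusted p = 0.026) and 1.73 ± 0.43 (0.084), and a change of 0.82 ± 0.49 in tra2 XX. The XX call was lost in DESeq2 (adjusted p = 0.098) and without any 1 library (0.076 to 0.85, with log2 fold changes of 1.92 to 2.28). sand, a potassium channel of sleep-promoting neurons, was called in XY, with 96.0, 57.0 and 83.2 normalized read counts against a median of 38.8 (log2 fold change 0.98 ± 0.22, adjusted p = 0.022). It had 65.8, 81.0 and 76.7 in XX against 43.4 (0.73 ± 0.23, adjusted p = 0.61) and 50.1, 37.4 and 45.3 in tra2 XX against 42.3. The XY call was lost without replicate 1 or replicate 3.

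In tra2 XX, the 4 genes higher were GstD5, Tep1, Nplp1 and CG14015. GstD5, a glutathione transferase, had 61.7, 6.5 and 4.53 normalized read counts, against 0 to 20.7, with replicate 1 above and the other replicates within the range of the others (2.91 ± 0.46, adjusted p = 8.1e-06). Without replicate 1 the change was 0.71 (adjusted p = 0.99), and DESeq2 gave no adjusted p. Tep1, a thioester protein of immunity, had 28.9, 29.3 and 67.9, against 0 to 49.3 (1.99 ± 0.44, adjusted p = 0.0076). Nplp1, a neuropeptide precursor, had 1253.9, 1444.1 and 1410.7, against 715.9 to 1331.4 (0.46 ± 0.09, adjusted p = 0.0016). CG14015 had 221.7, 216.3 and 246.8, against 125.5 to 240.0 (0.45 ± 0.11, adjusted p = 0.028). Against other 3L Df lines alone GstD5 was not tested, and the others were not called, with changes of 1.37 for Tep1 (adjusted p = 0.38), 0.48 for Nplp1 (0.059) and 0.47 for CG14015 (0.061).

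The 7 genes lower in tra2 XX were Root, Psf2, CG13024, CG1628, Cyp6v1, spin and PKD. Root, the rootletin of ciliary rootlets in sensory neurons, had 64.6, 42.3 and 65.7 normalized read counts, against 68.9 to 435.1, and was the only one of them whose groups did not overlap (-1.77 ± 0.42, adjusted p = 0.024). Psf2, of the GINS complex of DNA replication, had 24.1, 27.6 and 20.4, against 19.7 to 89.0 (-1.14 ± 0.27, adjusted p = 0.016), while in XX it had 110.3, 92.3 and 66.8, against a median of 66.1. The difference between those classes was -1.51 ± 0.39, with an adjusted p of 0.61. spin, a lysosomal transporter, had 1005.2, 1333.5 and 1304.3, against a median of 1852.2 (-0.59 ± 0.13, adjusted p = 0.0051). Cyp6v1, a cytochrome P450, fell by 0.75 ± 0.18 on the log2 scale, PKD, protein kinase D, by 0.44 ± 0.11, CG1628 by 0.98 ± 0.25 and CG13024 by 1.09 ± 0.27. Against other 3L Df lines alone, Root, Psf2 and CG1628 were called, while CG13024 was at -0.97 (adjusted p = 0.086), Cyp6v1 at -0.65 (0.15), spin at -0.57 (0.18) and PKD at -0.33 (0.54). Against lines without a Df, CG1628 was at -0.22 (0.55), and the other 6 genes were called. Of the 11 calls of tra2 XX outside the run, GstD5, Tep1 and spin stood without replicate 2, the library with raised roX1, GstD5 and spin without replicate 3, and Nplp1 and Tep1 without replicate 1. Each such fit has 2 libraries of the line left. Without replicate 2 the changes that were no longer called were -1.60 for Root, -1.24 for Psf2, -1.01 for CG13024, -1.05 for CG1628, -0.78 for Cyp6v1, -0.46 for PKD, 0.41 for Nplp1 and 0.48 for CG14015.

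The number of genes changed outside the run depended on the reference. When each line was a level of its own, so that the error was that between replicates of 1 line, 33 genes were higher (0.316% of those tested) and 5 lower in XX, 65 (0.68%) and 57 in tra2 XX, and 26 (0.25%) and 2 in XY, and 8 genes were higher in a pair of classes, with none lower. Lip3, sand and baz were shared by XX and XY. CG15784, CG34456, CG7906, the cuticle protein gene Cpr62Bb and Vajk2, of a family of cuticle assembly, were shared by tra2 XX and XY. Cpr62Bb had 158.1, 123.6 and 133.6 normalized read counts in tra2 XX, against 32.3 to 242.1 (median 74.0), and 253.4, 221.1 and 305.0 in XY, against 49.3 to 416.7 (median 206.6). The line ranked 4th of 32 and 3rd of 13, within the range of the others. CG7906 had 134.0, 123.6 and 115.5 in tra2 XX, against 0 to 122.4, the highest of 32 lines, and 86.6, 66.3 and 75.5 in XY, against 0.47 to 101.0. Against other 3L Df lines alone, where 0.357%, 0 and 0.107% of genes tested were higher, baz and Lip3 were shared. Against lines without a Df alone, which left 3 lines in XX and 2 in each of the other classes, 838 genes were shared.

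Other subunits of the proteasome were examined because Rpn10, at an edge of the run, is 1 of them. Whether a copy of Rpn10 was deleted was not tested apart from its expression. The list of 31 subunit genes besides Rpn10 was chosen with results of these data known. None of them passed the threshold in any class, yet 30 of 31 had a fitted change above 0 in each class, against 41.4%, 48.1% and 49.5% of all genes tested. The median over these genes ran from -0.32 to 0.70 among other XX lines, so the 31 are not independent observations. Summed over the 31 genes, the normalized read counts were 15613, 18425 and 16072 in XX, against 10814 to 26679 (median 13821). They were 19887, 25125 and 18914 in tra2 XX, against 13455 to 25193 (median 17936), and 14918, 14423 and 15000 in XY, against 10692 to 19911 (median 12363). Every library of the line was above the median of its class and within the range of the others. The median log2 fold change was 0.18 in XX females, 0.25 in tra2 XX flies and 0.23 in XY males, beside -0.05, -0.01 and -0.00 over all genes.

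**Figure D5:**
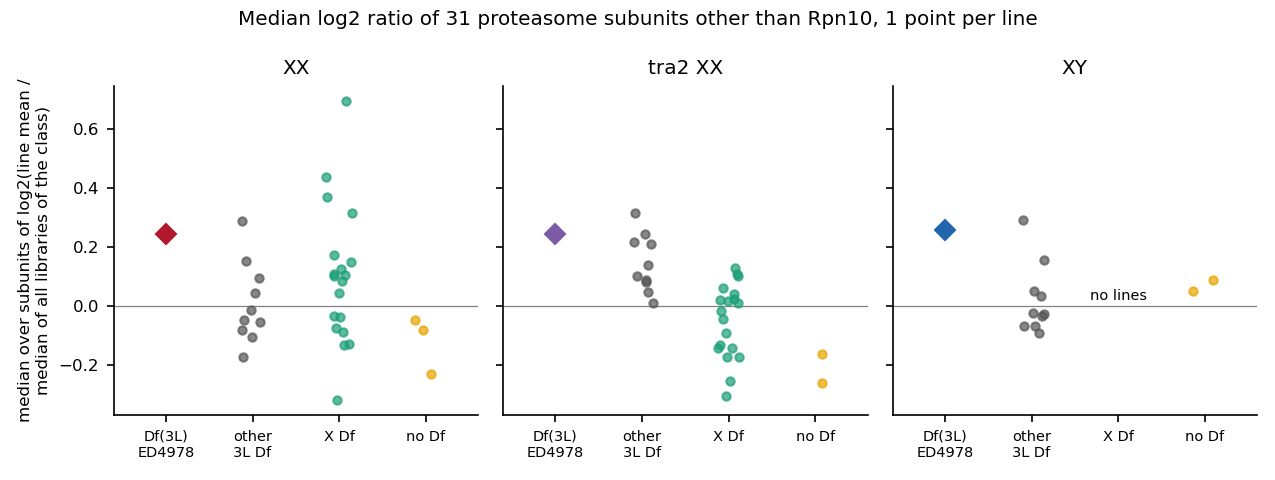
Median over 31 proteasome subunit genes other than Rpn10 of the log2 ratio of a line's mean to the median of all libraries of the class, 1 point per line (Df, deficiency). Df(3L)ED4978 (diamonds) stands at 0.24, 0.25 and 0.26 and ranks 6th of 33 XX lines, 3rd of 32 tra2 XX lines and 2nd of 13 XY lines.

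The 14 genes of the 20S core, the barrel that holds the proteolytic sites, had fitted changes of 0.07 to 0.38 in XX females, 0.12 to 0.38 in tra2 XX flies and 0.21 to 0.46 in XY males, all above 0. In XY, 12 of them had an unadjusted p under 0.05, where 1.19% of all genes were higher at that level, and 4 did in tra2 XX and none in XX. Prosalpha3, an outer-ring subunit chosen for mention after its values were seen, had 643.6, 440.4 and 586.2 normalized read counts in XY against a median of 391.1, with a change of 0.46 ± 0.14 and an adjusted p of 0.39. The 9 other genes of the 19S base, which unfolds substrates, had medians of 0.13, 0.21 and 0.15, and the 8 of the lid, which removes ubiquitin, 0.14, 0.24 and 0.15. For 14 helper and ubiquitin genes the medians were -0.01, 0.01 and -0.00, with none called. The proteasome level also differed among other lines, and the highest were Df(1)ED6878 in XX, at 0.70, Df(3L)ED4543 in tra2 XX, at 0.32, and Df(3L)ED4475 in XY, at 0.29. All 10 other 3L lines were above 0 in tra2 XX, and against them alone the median was 0.10, as it was 0.12 without tra2 XX replicate 2 and 0.10 for XX without replicate 2. Against other 3L lines it was 0.22 in XX and 0.23 in XY.

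Other lists of genes showed hardly any call. Of 15 heat shock and chaperone genes none was called, although their medians were -1.57, -0.28 and -1.90 and 5 were lower in XX at an unadjusted p under 0.05, as were 2.16% of all genes tested. These are fitted against the mean of other lines. Against the median library of the class, the median of the list was -0.64 in XX (-1.32, -0.48 and -0.50 by replicate), 0.12 in tra2 XX (-0.83, -0.11 and 0.69) and -0.38 in XY. Hsp70Bbb illustrated the spread, with 7.31, 25.9 and 22.0 normalized read counts in XX, against 3.64 to 4947.3 (median 68.6) in other XX libraries. In tra2 XX it had 513.7, 3206.8 and 6496.5, against 42.8 to 23050.7. Of 17 genes of oxidative stress and detoxification, GstD5 in tra2 XX was the only call, with medians of -0.04, 0.04 and 0.09. The antimicrobial peptides had fitted medians of 0.05, 1.09 and -0.49 and the Turandot stress genes of 0.46, -0.24 and -0.13, with none called. These rest on 14, 14 and 13 of 14 peptide genes and on 4 of 8 Turandot genes in each class. Against the median library the medians were 2.28, 1.89 and 1.61 for the peptides and 1.14, 0.23 and 0.07 for Turandot. Summed peptide levels by replicate were 9285, 3540 and 4700 in XX, against a median of 1135. They were 14704, 18278 and 4699 in tra2 XX (median 3700) and 441, 5649 and 302 in XY (median 584). All lay within the range of other libraries. Turandot medians by replicate were 0.19, 2.30 and -0.82 in XX, 0.70, 0.31 and -0.59 in tra2 XX and -0.39, -0.40 and 0.73 in XY.

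Markers of cell types were compared because fewer cells of a type and less RNA per cell cannot be told apart in pooled heads. No marker was called in the comparison with all other lines by edgeR, while DESeq2 called 1 fat body gene lower in tra2 XX. With each line a level of its own, 2 ovary genes were called higher in XX, and 1 was against other 3L lines. The 5 neuronal genes had medians of -0.04, 0.14 and -0.04, the 5 glial genes of -0.14, 0.02 and 0.03, and the 8 photoreceptor genes of -0.41, -0.03 and -0.13. In XX, 4 of the 8 photoreceptor genes were lower at an unadjusted p under 0.05, as were 2.16% of all genes tested. Against the median library their median was -0.31, with -0.19, -0.52 and -0.29 by replicate. That was the lowest of 33 XX lines, and the next lowest was also at -0.31. All 8 had a fitted change below 0 in XX, where 41.4% of all genes tested were above 0. Summed photoreceptor markers were 197818, 151063 and 173034 in XX, against 141408 to 430140 (median 225488). Of 6 fat body genes, among them those of the yolk proteins, all were tested in XX and 5 in each of tra2 XX and XY. Their fitted medians were 0.62, -2.68 and -3.06, but 1.00, -0.14 and 0.73 against the median library of the class. Their summed levels were 818070, 1409880 and 921032 in XX, against 57823 to 1863060 (median 522007). They were 2460, 2695 and 1802 in tra2 XX, against 2280 to 49717 (median 6536), and 5353, 14444 and 15465 in XY, against 594 to 186784 (median 9893). Medians of flight muscle were -0.28, 0.13 and 0.21 and of midgut -0.38, -0.09 and -0.11. They rest on 2, 3 and 3 of 4 flight muscle genes and on 4, 3 and 3 of 5 midgut genes. Accessory gland markers summed to 0 to 3.1 normalized read counts in the 9 libraries, and testis markers to 0 to 9.29. Ovary markers were high in XX replicates 2 and 3 as given above, and their medians were 0.65, -3.0 and -0.07 over 2, 1 and 2 genes tested. XX replicates 1, 2 and 3, with ovary markers at 1.46, 122.6 and 79.7, had run medians of -1.06, -0.96 and -0.85. The part of these marker differences in the results was not tested.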

How the data were processed

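The authors sequenced poly-A+ RNA, prepared per pool of 10 heads with a kit that does not mark strand. They mapped reads with Tophat to FlyBase release 5.57, kept 1 mapping per read, and deposited the read counts per gene from HT-Seq without normalization, the counts divided by DESeq2 size factors (the deposited normalized signal, called normalized read counts) and cufflinks FPKM (deposited; used only as an alternative). Of all reads, 7.12% named no gene and 1.19% fell on spike-ins, and both were left out.

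Each class was fitted with edgeR 4.0.16 in R 4.3.3 (TMM, filterByExpr, quasi-likelihood test, Benjamini-Hochberg adjustment, threshold 0.05), with the 3 libraries of the line against all other libraries pooled, so that the error holds differences between lines. The SE is the log2 fold change divided by the root of the F statistic, without its sign. Fold changes rest on fitted means, whereas ratios rest on the median of other libraries. Intervals are 95% intervals. The run was located as the stretch of 3L genes, in BDGP6 order, with the largest sum of the negative log2 ratio minus 0.5, held between -1.5 and 1 per gene. BDGP6 matched 16815 of 17142 gene identifiers and is not the authors' build, so no coordinates are given, and no sequences were used here. Alternatives were DESeq2 1.42.0, RLE factors, no filter, a replicate term, each line as a level, other references, other cut-offs, FPKM, a pseudocount and each replicate left out. The tests were tried on simulated counts, drawn for each library independently and without differences between lines. Those trials therefore cannot show whether p-values are too small for a claim about the line.

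Named genes are the run genes over the cut-off and 3 on each side, the genes called outside the run (in 2 or more classes, or with groups that do not overlap), genes of differing response, label checks and called members of the lists. The other called genes were named because they were few. Members, lists and tests were chosen with earlier results of these data known. Of 147 listed symbols, 1 was not matched. A single gene of the run is counted in the totals and medians but not reported here by itself.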

Additional observations from a re-analysis of the deposited data

How the results depend on the processing

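The median log2 ratio of the run kept its sign in every alternative run. With FPKM it was -1.06 in XX females, -0.85 in tra2 XX flies and -1.11 in XY males, and against other 3L lines it was -1.01 in tra2 XX. Leaving out 1 library of the line gave -0.99 to -0.91 in XX females, -0.90 to -0.88 in tra2 XX flies and -1.07 to -0.94 in XY males. The number of genes called was 59 in XX females, 147 in tra2 XX flies and 54 in XY males with each line a level, 59 in XX and 38 in XY against other 3L lines, 1943, 2321 and 545 against lines without a Df, and 49 in tra2 XX with DESeq2, and the cause was not tested. Leaving out 1 library, which leaves 2 libraries in the line, gave 9 to 12 in XX females, 18 to 21 in tra2 XX flies and 19 to 20 in XY males. Genes shared by classes outside the run numbered 8 with each line a level, 2 against other 3L lines, 838 against lines without a Df and 0 without any 1 replicate number (0 to 0). Genes whose response differed numbered 3 for XY minus XX against other 3L lines and 0 in the other alternatives run. Against lines without a Df, the change of CG14567 reversed to 0.21 in XX females, 0.65 in tra2 XX flies and 0.14 in XY males, and that of CG32447 in XX to 0.029, of which CG14567 in tra2 XX passed the threshold (adjusted p = 0.031). The proteasome medians, an alternative added after the data were seen, were 0.36 in XX and 0.47 in tra2 XX against lines without a Df, 0.10 to 0.21 in XX and 0.12 to 0.32 in tra2 XX without 1 library, and above 0 in all settings run.

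The replicate number as a block gave 18, 32 and 25 genes called in XX, tra2 XX and XY, 1 gene shared and 0 genes of differing response. Deviations of the line's replicates correlated with those of the same number in other lines at 0.41, 0.38 and 0.09 in XX. The values were -0.25, -0.09 and -0.22 in tra2 XX and -0.02, -0.42 and -0.06 in XY. Whether libraries of the same number shared a batch was not tested. Depth limits genes of few reads such as CG43980 and Sfp78E.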
